A study of Homo sapiens with 36 samples.

Results

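The 12 chromatin total RNA libraries of a study on acute loss of DIS3 were used here to ask how far the response to auxin differed between cells whose DIS3 can be degraded and cells whose DIS3 cannot. All 12 libraries, of 36 in the series, were taken by their labels, 3 in each of 4 groups. The quantity described is an interaction: the log2 auxin effect in DIS3-AID cells minus the log2 auxin effect in control cells. A positive value can come from a rise in DIS3-AID cells or from a fall in control cells, so both auxin effects are given beside it.

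All cells were HCT116, a human colon carcinoma line. The control line expressed TIR1, the plant receptor that marks degron-tagged proteins for destruction when auxin is present. The DIS3-AID line was a clone made by CRISPR editing, with DIS3 fused to the auxin-inducible degron and TIR1 expressed constitutively. The 4 groups were untreated control cells, control cells given 500 uM auxin for 1 h, untreated DIS3-AID cells, and DIS3-AID cells given 500 uM auxin for 1 h. Chromatin was separated with salt buffers, and ribosomal RNA was depleted before stranded libraries were made. One clone stands for the edited line, so a property of that clone and a property of the tag cannot be told apart.

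DIS3 provides ribonuclease activity to the RNA exosome, the complex that trims and destroys RNA from the 3′ end. In the nucleus the exosome is known for removing promoter upstream and other short-lived non-coding transcripts and for trimming precursors of small nuclear and nucleolar RNAs. RNA bound to chromatin is rich in transcripts still being made and in transcripts kept at their genes.

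Totals ran from 50.3 to 139 M counts per library, and 32636 to 35831 features had at least 1 count. Scaling factors lay between 0.969 and 1.035. On the first principal component, which held 56.1% of the variance, the 6 control libraries lay on the opposite side from the 6 DIS3-AID libraries. Auxin-treated control replicate 3 stood apart from its mates on the second component (-10.28, against -0.88 and 0.34) and on the third (-8.54, against -18.42 and -19.7), so counts of calls without it are given below. CPM are counts scaled to library size, with the factors above for single genes and without them for summed levels. The summed level of 10 colon epithelial markers was 316 to 400 CPM over the 12 libraries. That of 7 fibroblast markers was 11.7 to 19.8 CPM and that of 9 blood and endothelial markers 3.89 to 5.37 CPM. At most 1 of the 7 and 2 of the 9 were at 0 throughout a group, and 0 of the colon markers were. Mitochondrially encoded genes, 15 features, summed to 1938 to 2106 CPM in untreated control, 1878 to 2839 in auxin-treated control, 2483 to 3608 in untreated DIS3-AID and 2954 to 3546 in auxin-treated DIS3-AID libraries. Their part in the results was not tested. None of the 8 colon, 3 fibroblast, 3 blood and endothelial, 15 mitochondrially encoded and 15 abundant cytoplasmic mRNA features tested passed the interaction test.

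DIS3 transcript (ENSG00000083520.14, chr13:72752169-72782096, hg38, minus strand) had 55.3, 53.5 and 55.5 CPM in the untreated control, 60.8, 62.1 and 52.1 in auxin-treated control, 37.5, 30.4 and 33.3 in untreated DIS3-AID, and 31, 33.1 and 37.5 in auxin-treated DIS3-AID cells. The lines did not overlap, and within each line the treated and untreated libraries did. The interaction for DIS3 was -0.09 ± 0.12 (SE, adjusted p = 0.655). The degron acts on the protein, so transcript levels do not measure the depletion.

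The auxin effects of the 2 lines differed at 17.7% of the transcripts measured on chromatin, in either direction. Most unannotated assembled loci rose after auxin in DIS3-AID cells (635 of 1005), as did 23 of 33 spliceosomal snRNAs, 134 of 390 promoter-divergent RNAs and 74 of 323 snoRNAs, where 11% of all features rose there. Low-count members may have passed the filter only through the libraries in which they are high. The loci may also have been assembled from these libraries. Both may raise these shares, which are therefore no independent evidence. Heat shock genes fell after auxin in control cells (11 of 12), where 7.97% of all features fell. Protein-coding genes with an interaction held both kinds, some with the larger effect in control cells and some with the larger effect in DIS3-AID cells. Of 24966 features tested with edgeR's quasi-likelihood test, the interaction passed an adjusted p (Benjamini-Hochberg) of 0.05 at 4429 (17.7%). It was higher in DIS3-AID cells at 2131 (8.54%) and lower at 2298 (9.2%). By at least 2-fold, 557 (2.23%) were higher and 283 (1.13%) lower. The median over all features tested was 0.01. In bulk libraries, fewer cells with a transcript and less transcript per cell cannot be told apart. How the higher and lower calls split depended on the scaling: 1513 higher and 3193 lower with library sizes alone, and 2608 higher and 1972 lower with factors taken from protein-coding genes. Without auxin-treated DIS3-AID replicate 2 there were 1410 higher calls, the smallest number over the 12 libraries left out, and without auxin-treated control replicate 3 there were 2420.

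The 2 auxin effects behind this difference were of like extent in number. Rises of at least 2-fold were more frequent in DIS3-AID cells, and falls of that size were near in number. In DIS3-AID cells 2741 features rose (11%) and 2382 fell (9.54%), of which 737 rose (2.95%) and 85 fell (0.34%) by at least 2-fold. In control cells 2253 rose (9.02%) and 1989 fell (7.97%), of which 134 rose (0.537%) and 76 fell (0.304%) by at least 2-fold. Before auxin the DIS3-AID line already differed from the control line at 8120 features (32.5%), with 3785 higher (15.2%) and 4335 lower (17.4%). The control counts rested on single libraries: without untreated control replicate 3 they were 1216 and 1097, and without auxin-treated control replicate 1 they were 1389 and 1208. Of the 4429 features with an interaction, 1925 had an auxin effect past the threshold in DIS3-AID cells only, 1446 in control cells only, 600 in both and 458 in neither. Auxin moved 737 features (2.95%) the same way in both lines, 345 up and 392 down, and 76 of these also passed the interaction test. It moved 524 features (2.1%) in opposite directions, 363 of them down in DIS3-AID and up in control cells. Each of these 524 passed the interaction test. Opposite effects that each pass in the same fit nearly fix that outcome, so it is no further support.

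**Figure D1:**
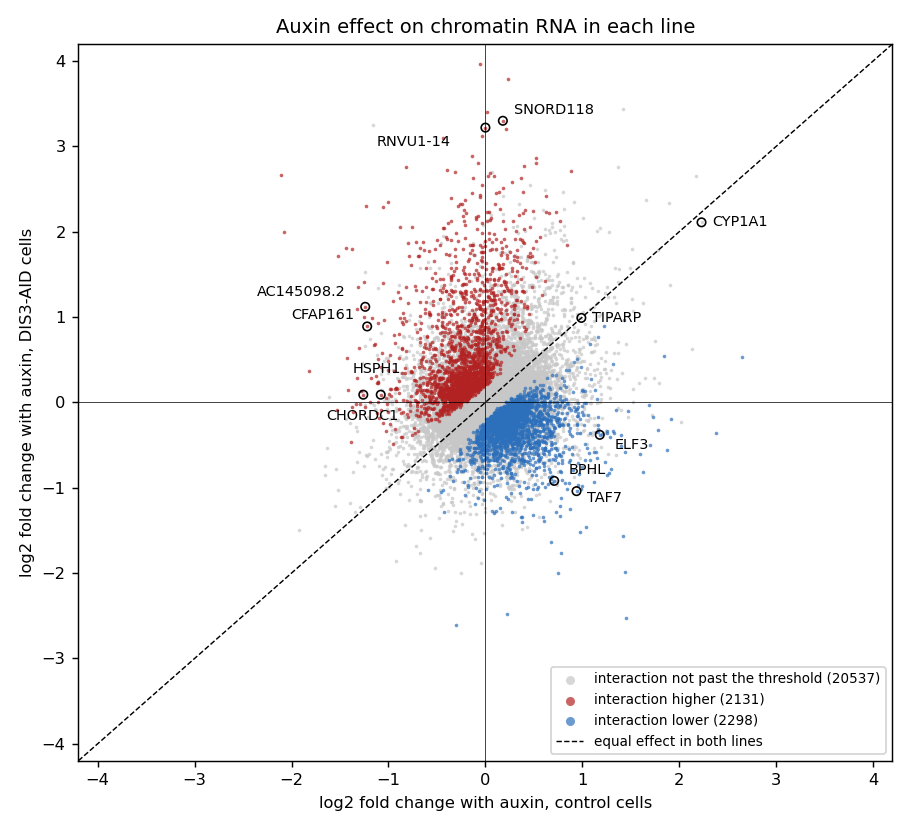
Log2 auxin effect in control cells (x axis) against that in DIS3-AID cells (y axis) for the 24966 features tested on chromatin, with the 2131 features whose interaction was higher, the 2298 whose interaction was lower and those not past the threshold in separate colours. Higher calls lie above the diagonal and lower calls below it, the tallest values belong to features near 0 on the control axis, and 1 feature lies outside the axes.

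The classes of transcript differed in which line moved. Assembled loci, features with only a locus number in the files, had a higher interaction at 366 of 1005 tested (36.4%) and a lower one at 13 (1.29%), with a median interaction of 0.77. In 94.5% of the 366 the larger auxin effect was the one in DIS3-AID cells. In DIS3-AID cells 635 assembled loci rose and 1 fell after auxin, and in control cells 71 rose and 28 fell (37 and 14 without untreated replicate 3, 36 and 18 without treated replicate 1, and 46 rose without untreated replicate 2). The 13 became 8 without untreated control replicate 2 or auxin-treated DIS3-AID replicate 2. The libraries from which these loci were assembled are not given in the sources used here. If the chromatin libraries were among them, their direction is not independent evidence. The filter on low counts can also admit a feature through the group in which it is high, which may raise the shares of low-count classes. The snRNA class had a higher interaction at 26 of 305 (8.52%, as over all features), and snoRNAs at 40 of 323 (12.4%). All 26 snRNAs and 36 of the 40 snoRNAs had the larger effect in DIS3-AID cells. The 26 became 16 without untreated control replicate 3 and 17 without auxin-treated DIS3-AID replicate 3. Among lncRNAs 611 were higher (11%) and 317 lower (5.73%) of 5533, and the DIS3-AID effect was the larger in 71.4% of the higher ones. Those 436 lncRNAs had a median gene span of 4.13 kb, against 15.2 kb for the 175 in which the control effect was larger and 6.46 kb for all lncRNAs tested.

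Protein-coding genes had more lower interactions than higher ones, by a margin that depended on the scaling. Of 14629 tested, 984 had a higher interaction (6.73%) and 1834 a lower one (12.5%). In 60.1% of the 984 the larger effect was the one in control cells, where 559 of them fell after auxin, and 394 rose in DIS3-AID cells. In 52.4% of the 1834 the larger effect was the one in DIS3-AID cells, where 994 of them fell after auxin, and 956 rose in control cells. Pseudogenes passed at 68 higher and 93 lower of 1921, microRNA genes at 3 and 14 of 615, and other small RNA genes (misc_RNA) at 19 and 7 of 433, each a smaller share than over all features. With library sizes alone the protein-coding counts were 601 higher and 2578 lower. Over the scalings tried, the higher count reached up to 1330 and the lower count came down to 1568, with medians from -0.10 to 0.00. The higher count was 559 without auxin-treated DIS3-AID replicate 2 and 586 without untreated control replicate 3.

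The groups that stood apart among the called features are given as a description, since an interaction call itself favours certain positions. Nothing is read from their shares against those of all features. All 3 auxin-treated DIS3-AID libraries lay above the other 9 at 1117 of the 2131 higher features (52.4%, and 11% of all features tested), and untreated control libraries did so at 388 of them (18.2%, and 8.03% of all). Among the 366 assembled loci with a higher interaction, the auxin-treated DIS3-AID libraries were the high ones at 332 (90.7%, and 60% of the assembled loci tested). Among the 984 protein-coding genes with a higher interaction, the untreated control libraries stood above the rest at 307 (31.2%) and the auxin-treated DIS3-AID libraries at 304 (30.9%). Among the 1834 with a lower interaction, the auxin-treated DIS3-AID libraries lay below the other 9 at 736 (40.1%, and 9.3% of all features tested). Auxin-treated control libraries lay above the others at 459 of these (25%, and 3.9% of all) and untreated control libraries below them at 355 (19.4%, and 6.95% of all).

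**Figure D2:**
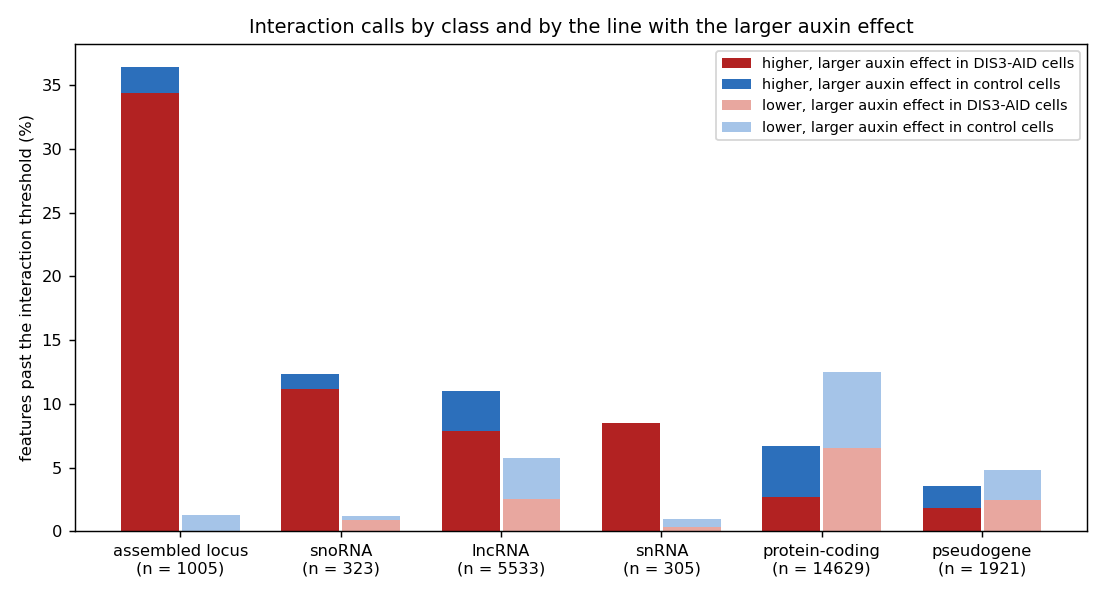
Percent of the features tested in each transcript class whose interaction passed adjusted p < 0.05, higher and lower, with each bar split by the line in which the auxin effect was larger. Assembled loci reach 36.4% higher, nearly all with the larger effect in DIS3-AID cells, and protein-coding genes have 12.5% lower, of which the DIS3-AID effect was larger in 52.4%, and a higher part of which the control effect was larger in 60.1%.

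Spliceosomal snRNAs were among the highest interactions on chromatin, and the U1 family led them. U1 snRNA pairs with the 5′ splice site through its own 5′ end, and the human genome holds many variant copies beside the main genes. The printed sequences are the main U1 gene and 3 variants with high interactions, from GENCODE 29 transcripts on hg38, 5′ to 3′, with the stretch ACTTACCTG that pairs with the splice site in capitals where it is present.
RNU1-1 (chr1:16514122-16514285, minus strand): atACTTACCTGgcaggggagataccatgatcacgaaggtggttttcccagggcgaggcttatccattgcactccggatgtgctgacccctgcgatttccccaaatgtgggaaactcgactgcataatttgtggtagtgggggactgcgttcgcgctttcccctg
RNVU1-14 (chr1:145281116-145281279, plus strand): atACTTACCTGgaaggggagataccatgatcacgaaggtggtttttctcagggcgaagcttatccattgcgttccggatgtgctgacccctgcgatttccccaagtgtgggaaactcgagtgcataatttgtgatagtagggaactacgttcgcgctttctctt
RNVU1-27 (chr1:148522601-148522765, plus strand): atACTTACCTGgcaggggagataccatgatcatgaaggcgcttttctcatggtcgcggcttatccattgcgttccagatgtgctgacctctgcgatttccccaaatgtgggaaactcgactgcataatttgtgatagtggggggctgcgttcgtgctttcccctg
RNVU1-22 (chr1:148263476-148263632, plus strand): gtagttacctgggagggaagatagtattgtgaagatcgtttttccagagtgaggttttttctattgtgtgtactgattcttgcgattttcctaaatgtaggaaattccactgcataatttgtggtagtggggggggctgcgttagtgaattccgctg
RNVU1-14 is 164 bases long and 90.9% identical to RNU1-1, RNVU1-27 is 165 bases long and 91.5% identical, and RNVU1-22 is 157 bases long and 73.7% identical and lacks the stretch.

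RNVU1-14 had 0.547, 0.546 and 0.787 CPM in the untreated control, 0.608, 0.806 and 0.478 in auxin-treated control, 0.568, 0.661 and 0.708 in untreated DIS3-AID, and 4.47, 6.62 and 6.94 in auxin-treated DIS3-AID cells. Only the 3 auxin-treated DIS3-AID libraries were high, and the other 9 overlapped. The interaction was 3.23 ± 0.32 (SE, adjusted p = 5.54e-06). RNVU1-14 shares exon sequence with AC245014.3, which had an interaction of 3.16. RNVU1-22 lay between 0.13 and 0.314 CPM in 9 libraries and at 2.24, 2.34 and 3.09 CPM in auxin-treated DIS3-AID cells, an interaction of 3.55 ± 0.43 (SE, adjusted p = 2.8e-05). RNVU1-25 (3.39) lay between RNVU1-14 and RNVU1-22, and RNVU1-34 (2.99), RNVU1-27 (2.46) and RNVU1-19 (2.26) followed. RNU1-1 itself, 1 of 6 listed genes with that exact sequence, had 1.20 (adjusted p = 0.0272).

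In the U1 family, 22 of 30 genes with a sequence were tested, and 14 had a higher interaction, against 8.54% of all features. RNVU1-2, among the 14, had mean levels of 0.0855, 0.0998, 0.0506 and 0.205 CPM in the groups as ordered above. Genes this low may have been tested only through their auxin-treated DIS3-AID libraries. The stretch ACTTACCTG was present in 12 of the 22 tested genes and in 6 of the 14 with a higher interaction. The identity of the 14 to RNU1-1 ran from 72.7 to 100% (median 90), and that of the 8 not past the threshold from 73.4 to 100% (median 97.5). RNVU1-7, 99.4% identical, had -0.10, and RNVU1-31, 98.8% identical, had 0.24. Near-identical copies can share or lose reads in counting, so the values of single U1 genes are uncertain.

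The list of spliceosomal snRNAs as a whole had 33 members tested. Of these 20 had a higher interaction and 0 a lower one, with a median of 1.38, against 8.54% of all features higher. After auxin 23 rose and 1 fell in DIS3-AID cells, and 0 rose or fell in control cells. With a count minimum of 50, which left 16 members, 11 were higher. Beyond U1, RNU11 of the minor spliceosome had 2.0 (adjusted p = 0.000162), RNU6-2, a U6 gene made by RNA polymerase III, had 2.25, RNU5F-1 had 2.32 and RNU12 had 0.87. RNU4-2 (-0.45, adjusted p = 0.198) and RNU4-1 (-0.38) of U4 did not pass.

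U8 and U3, the small nucleolar RNAs that act in ribosomal RNA processing, had the same form. SNORD118, the U8 gene (chr17:8173454-8173587, minus strand), had 0.528, 0.382 and 0.483 CPM in the untreated control, 0.579, 0.505 and 0.538 in auxin-treated control, 0.39, 0.4 and 0.214 in untreated DIS3-AID, and 2.55, 3.55 and 4.15 in auxin-treated DIS3-AID cells. The auxin-treated DIS3-AID libraries were the only high ones. Its interaction was 3.12 ± 0.33 (SE, adjusted p = 8.95e-06), and TMEM107, with which it shares exon sequence, had 1.17. A separate feature named U3 (chr17:58631641-58631836, minus strand) rose from 0.753 to 5.57 CPM in DIS3-AID cells, with 0.873 and 0.804 CPM in control cells, an interaction of 3.03. Of 7 U3 and U8 genes listed, 5 had a higher interaction and 0 a lower one, with a median of 2.11, against 8.54% of all features higher. SNORD3A had mean levels of 71.3, 66.1, 33.2 and 56.8 CPM in the 4 groups as ordered above and an interaction of 0.88 (adjusted p = 0.0522).

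RNA polymerase III transcripts were divided. BCYRN1, the BC200 RNA (chr2:47335315-47335514, plus strand), had 1.47, 1.55 and 1.11 CPM in the untreated control, 1.01, 1.07 and 1.29 in auxin-treated control, 1.17, 1.28 and 1.63 in untreated DIS3-AID, and 4.76, 5.52 and 4.69 in auxin-treated DIS3-AID cells. Its 3 auxin-treated DIS3-AID libraries were all above the other 9, and the interaction was 2.17 ± 0.21 (SE, adjusted p = 4.45e-06). VTRNA1-3, a vault RNA, also had 2.17 (adjusted p = 0.000551), of which 1.35 was a rise in DIS3-AID cells and -0.82 a fall in control cells. RPPH1, the RNA of RNase P, had 0.58 (adjusted p = 0.0182). RN7SK (-0.06), the inhibitor of the elongation factor P-TEFb, RMRP (0.06), and RN7SL1 of the signal recognition particle (0.53, adjusted p = 0.299) did not pass. In all, 3 of 10 listed members had a higher interaction and 0 a lower one, against 8.54% of all features higher.

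Other snoRNAs, most of them guides, had lower median interactions than U3 and U8. Box C/D snoRNAs, most of which direct ribose methylation, had a higher interaction at 20 and a lower one at 1 of 136, with a median of 0.18. Without auxin-treated DIS3-AID replicate 3 the 20 became 13. SNORD13 had mean levels of 8.59 and 10.7 CPM (without and with auxin) in control and 7.62 and 20.3 CPM in DIS3-AID cells, an interaction of 1.08 (adjusted p = 0.00982). SNORD4B (1.09) shares exon sequence with RPL23A and SNORD14B (0.97) with RPS13, so their counts may hold reads of those genes. Box H/ACA snoRNAs, guides of pseudouridylation, had 9 higher and 2 lower of 124, with a median of 0.12 (5 higher with library sizes alone). That is no larger a share than the 8.54% higher over all features, and in DIS3-AID cells 24 of the 124 rose (11 to 14 without replicate 2 or 3 of either DIS3-AID group). SNORA50C (0.96), which shares exon sequence with SNHG25, and SNORA69 (0.87), which shares it with RPL39, were the largest of these. Of 21 scaRNAs tested, 0 passed in either direction, with a median of 0.16. At unadjusted p < 0.05 over all features, 7871 had an interaction.

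Transcripts that start at promoters and run away from the gene had a positive interaction in many cases. In the list of divergent transcripts 100 of 390 were higher and 21 lower, with a median of 0.32, where 8.54% of all features were higher and 9.2% lower. Members can pass the filter on low counts through the group in which they are high, which may raise their share. After auxin 134 rose and 21 fell in DIS3-AID cells, and 37 rose and 33 fell in control cells. The smaller counts rested on single libraries. In DIS3-AID cells 13 or 12 fell without treated replicate 1 or 2, in control cells 18 rose without untreated replicate 3, 21 or 18 rose without treated replicate 1 or 2, and 19 fell without untreated replicate 1. C1orf21-DT, the divergent partner of C1orf21, had 0.102, 0.127 and 0.119 CPM in the untreated control, 0.0724, 0.109 and 0.119 in auxin-treated control, 0.134, 0.0827 and 0.115 in untreated DIS3-AID, and 0.523, 0.454 and 0.451 in auxin-treated DIS3-AID cells. The interaction was 2.29 ± 0.45 (SE, adjusted p = 0.00178). All other libraries, at most 0.134 CPM, lay below the filter on low counts. C1orf21-DT was therefore tested only through its auxin-treated DIS3-AID libraries, and its call is no independent support. ETNK1-DT (2.47, adjusted p = 0.0263) and FCHO2-DT (2.34, adjusted p = 0.0384) had larger values and lost their calls in 8 and 10 of 19 alternatives. They too may have been tested only through their auxin-treated DIS3-AID libraries, so their calls are no independent support.

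Antisense lncRNAs had a higher interaction at 132 and a lower one at 59 of 862, with a median of 0.12. The shares of all features were 8.54% and 9.2%. MALT1-AS1 had 0.547, 0.51 and 0.453 CPM in the untreated control, 0.565, 0.574 and 0.378 in auxin-treated control, 0.657, 0.634 and 0.691 in untreated DIS3-AID, and 2.82, 2.87 and 3.07 in auxin-treated DIS3-AID cells. Its 3 auxin-treated DIS3-AID libraries were the high ones, with an interaction of 2.09. FOSL2-AS1 (3.12), SETD4-AS1 (3.25) and HDAC4-AS1 (2.12) had low counts and may have been tested only through their auxin-treated DIS3-AID libraries. The LINC list, intergenic lncRNAs, had 47 higher and 55 lower of 601, shares near those of all features (8.54% and 9.2%), with a median of 0.00. LINC03065 (2.66) was at the top of that list and LINC02522 (-2.20) and LINC01389 (-2.0) at its bottom.

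Long transcripts that host small RNAs or stay in the nucleus had smaller interactions. MIR222HG, the host transcript of miR-221 and miR-222 (chrX:45745211-45770274, minus strand), had 490, 518 and 534 CPM in the untreated control, 521, 532 and 488 in auxin-treated control, 496, 525 and 544 in untreated DIS3-AID, and 696, 740 and 785 in auxin-treated DIS3-AID cells. All 3 auxin-treated DIS3-AID libraries lay above the other 9, and the interaction was 0.51 ± 0.08 (SE, adjusted p = 0.000323). Among 41 microRNA host transcripts 11 had a higher interaction and 4 a lower one, where 8.54% of all features were higher and 9.2% lower. MIR378D2HG had 1.45 (adjusted p = 1.02e-06) and MIR1915HG 0.80. The 4 lower ones, a share near that of all features, were MIR99AHG (-0.77), MIR5689HG (-0.69), MIRLET7IHG (-0.52) and MIR130AHG (-0.33). Without auxin-treated DIS3-AID replicate 2 or replicate 3, 2 lower ones passed. MIR99AHG lost its call in 10 of 20 alternatives. LINC-PINT, in the feature that holds miR-29 precursors, had 686, 707 and 696 CPM in the untreated control, 789, 773 and 775 in auxin-treated control, 640, 737 and 709 in untreated DIS3-AID, and 1055, 1045 and 1035 in auxin-treated DIS3-AID cells. Auxin raised it in both lines, by 0.16 in control and 0.59 in DIS3-AID cells, with an interaction of 0.43.

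NEAT1, the scaffold of paraspeckles, went the opposite way in the 2 lines. It had 695, 698 and 691 CPM in the untreated control, 614, 609 and 593 in auxin-treated control, 531, 574 and 538 in untreated DIS3-AID, and 612, 633 and 693 in auxin-treated DIS3-AID cells. It fell by 0.20 in control cells and rose by 0.24 in DIS3-AID cells, an interaction of 0.44. Nuclear lncRNAs had a higher interaction at 6 of 16 and a lower one at 0, with a median of 0.25, against 8.54% of all features higher. The others were FTX (0.36), PVT1 (0.34) and JPX (0.31), and MALAT1 had 0.17 (adjusted p = 0.366). Host genes of snoRNAs had a higher interaction at 7 of 31 and a lower one at 0, with SNHG25 (0.76), SNHG19 (0.68) and SNHG4 (0.55) first. SNHG25 shares exon sequence with SNORA50C and SNHG4 with MATR3.

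**Figure D3:**
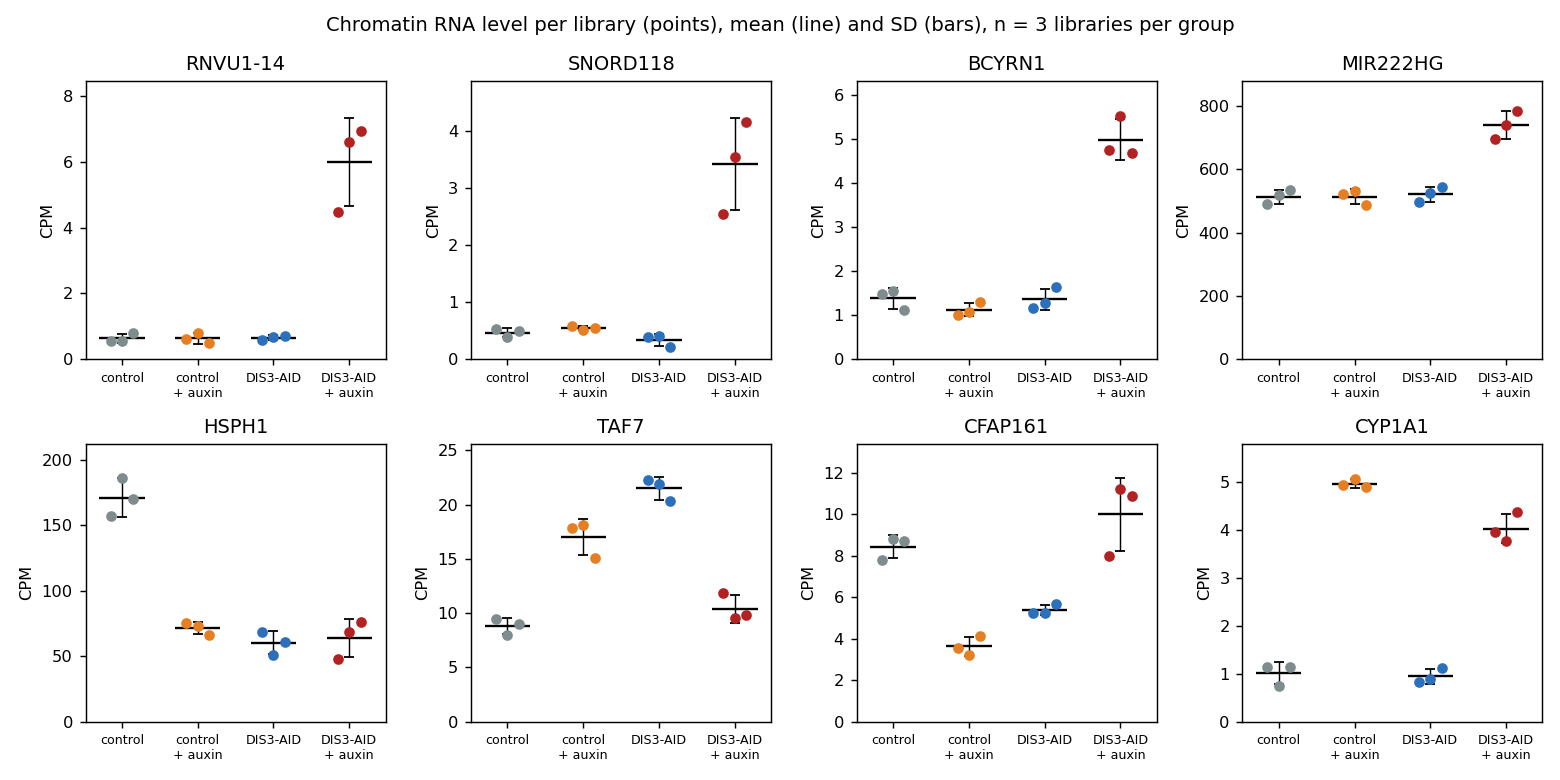
Level in CPM of 8 named genes in each of the 12 chromatin libraries, 1 panel per gene, with the mean of each group as a line and bars of 1 SD (n = 3). RNVU1-14, SNORD118, BCYRN1 and MIR222HG are high in auxin-treated DIS3-AID cells, HSPH1 is high in untreated control cells, TAF7 and CFAP161 move in opposite directions in the 2 lines, and CYP1A1 rises in both.

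Heat shock genes had a positive interaction of another make: they fell after auxin in control cells, and most did not pass in DIS3-AID cells. The encoded chaperones fold proteins, and their transcription is driven by the heat shock factor HSF1. Of 12 tested, 11 had a higher interaction and 0 a lower one, where 8.54% of all features were higher. The median was 0.57, and 10 to 12 were higher over all alternatives. In control cells 11 fell and 0 rose, with a median of -0.46, where 7.97% of all features fell. In DIS3-AID cells 2 rose (4 without untreated replicate 1) and 0 fell, with a median of 0.11.

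HSPH1, a chaperone of the HSP110 group (chr13:31134974-31162388, minus strand), had 157, 186 and 170 CPM in the untreated control, 75.1, 73.1 and 66.1 in auxin-treated control, 68.8, 51.2 and 60.6 in untreated DIS3-AID, and 48, 68.6 and 76.1 in auxin-treated DIS3-AID cells. The untreated control libraries were high, and the other 3 groups overlapped. HSPH1 fell by 1.26 in control cells (adjusted p = 0.000126) and changed by 0.09 in DIS3-AID cells (adjusted p = 0.72), an interaction of 1.35 ± 0.21 (SE, adjusted p = 0.00079). CHORDC1, an HSP90 co-chaperone (chr11:90201160-90223364, minus strand), had 103, 115 and 110 CPM in the untreated control, 53.7, 53.8 and 47.8 in auxin-treated control, 60.1, 42.5 and 51.1 in untreated DIS3-AID, and 43.1, 57.6 and 63.7 in auxin-treated DIS3-AID cells. Again only the untreated control libraries were high, with an interaction of 1.17 ± 0.19 (SE, adjusted p = 0.000859). HSPE1, the mitochondrial co-chaperonin, had 0.86, the HSP70 co-chaperone BAG3 0.74, the constitutive HSP70 HSPA8 0.60, DNAJA1 0.58 and HSP90AA1 0.54. HSP90AB1 had 0.34 (adjusted p = 0.0677). The summed level of the list was 1096 to 1194 CPM in untreated control, 737 to 848 in auxin-treated control, 697 to 802 in untreated DIS3-AID and 749 to 806 in auxin-treated DIS3-AID libraries, so the untreated control cells were the group apart.

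Other protein-coding genes also fell after auxin in control cells and did not pass, or rose, in DIS3-AID cells. INTS6, a subunit of the Integrator complex that ends transcription of snRNA genes and of paused polymerase, had 244, 256 and 272 CPM in the untreated control, 165, 166 and 155 in auxin-treated control, 185, 132 and 152 in untreated DIS3-AID, and 144, 185 and 211 in auxin-treated DIS3-AID cells. Its untreated control libraries were above the rest, with an interaction of 0.87 (adjusted p = 0.00412). ZFP2, a zinc finger protein, fell by 1.32 in control cells and had 0.28 (adjusted p = 0.175) in DIS3-AID cells, an interaction of 1.60. ZFP69B (1.18), the cytoskeletal ESPNL (1.48), the signalling adaptor CARD9 (1.43), which shares exon sequence with DNLZ, and LEAP2 (1.16), a secreted peptide, were also among the 10 highest protein-coding genes.

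CFAP161, a protein of cilia and flagella (chr15:81007033-81149175, plus strand), moved in opposite directions. It had 7.78, 8.8 and 8.71 CPM in the untreated control, 3.55, 3.22 and 4.14 in auxin-treated control, 5.24, 5.26 and 5.66 in untreated DIS3-AID, and 8, 11.2 and 10.9 in auxin-treated DIS3-AID cells. The treated and untreated libraries did not overlap in either line. It fell by 1.22 in control and rose by 0.89 in DIS3-AID cells, an interaction of 2.11 ± 0.16 (SE, adjusted p = 3.4e-07), the highest of the protein-coding genes with a mean of at least 1 CPM. AKAP5, an anchor of protein kinase A, had 1.82, and the lncRNA AC145098.2 had 2.36, each by a fall in control and a rise in DIS3-AID cells.

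The lowest interactions belonged to genes that rose after auxin in control cells. TAF7, a subunit of the general transcription factor TFIID (chr5:141260225-141320821, minus strand), had 9.43, 8.03 and 9.02 CPM in the untreated control, 17.8, 18.1 and 15.1 in auxin-treated control, 22.3, 21.9 and 20.3 in untreated DIS3-AID, and 11.9, 9.51 and 9.82 in auxin-treated DIS3-AID cells. Auxin-treated control and untreated DIS3-AID cells were high, and auxin-treated DIS3-AID cells were near untreated control cells. TAF7 rose by 0.94 in control cells and fell by 1.04 in DIS3-AID cells, an interaction of -1.98 ± 0.13 (SE, adjusted p = 5.89e-08). BPHL, a hydrolase (chr6:3118374-3153578, plus strand), had 13.7, 12.3 and 12.2 CPM in the untreated control, 20.1, 21.6 and 20.5 in auxin-treated control, 21.1, 25.9 and 25.3 in untreated DIS3-AID, and 14.6, 12 and 11.4 in auxin-treated DIS3-AID cells, an interaction of -1.63 ± 0.13 (SE, adjusted p = 4.44e-07).

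ELF3, an epithelial transcription factor, differed in that only 1 group was high. It had 2.6, 2.33 and 2.52 CPM in the untreated control, 6.06, 5.26 and 5.65 in auxin-treated control, 2.73, 2.99 and 3.18 in untreated DIS3-AID, and 2.7, 1.53 and 2.48 in auxin-treated DIS3-AID cells, an interaction of -1.56 ± 0.19 (SE, adjusted p = 3.83e-05). ELF3 shares exon sequence with AL691482.3. CFAP210 (-1.75) and LINC01619 (-1.56), which shares exon sequence with BTG1, also rose in control cells by 1.08 and 1.20. ASTL (-2.03), AL031289.1 (-1.85), AC008440.3 (-1.69) and AC011379.2 (-1.69) completed the 10 lowest, with LINC01389.

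Immediate-early genes respond within minutes to growth factors and stress. Where 9.2% of all features were lower, they had a negative interaction at 11 of 42 and a positive one at 0 (median -0.32). In control cells 12 rose and 1 fell, with a median of 0.21, and in DIS3-AID cells 2 rose and 5 fell, with a median of -0.10 (3 fell without replicate 2 or 3 of either DIS3-AID group, and 8 without auxin-treated control replicate 3 or with no filter on low counts). With factors from protein-coding genes 4 rose and 3 fell there. These counts rested on single libraries: 6 interactions passed without untreated control replicate 3 or without auxin-treated control replicate 1, and in each of these cases 7 genes rose in control cells. BTG1, an antiproliferative gene, had -1.49 (adjusted p = 0.000158) and rose by 1.14 in control cells. SGK1, a serum-induced kinase, had -0.95, MAFF -0.68, and KLF6 and PLK3 each -0.56. EGR3 (-1.21, adjusted p = 0.037) lost its call in 10 of 20 alternatives.

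Feedback genes of the ERK pathway had 7 lower and 0 higher of 23, with a median of -0.26, where 9.2% of all features were lower. SPRY4, an inhibitor of receptor signalling, had 172, 168 and 166 CPM in the untreated control, 174, 164 and 158 in auxin-treated control, 153, 165 and 159 in untreated DIS3-AID, and 110, 107 and 122 in auxin-treated DIS3-AID cells. Here the auxin-treated DIS3-AID libraries were the low ones, with an interaction of -0.46 ± 0.08 (SE, adjusted p = 0.00076). The ligand HBEGF (-0.52) also fell in DIS3-AID cells, by 0.59, and the phosphatase DUSP10 (-0.85) rose by 0.51 in control cells.

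Stress genes were lower in the interaction in smaller numbers. Of 19 ATF4 targets 4 were lower and 0 higher, where 9.2% of all features were lower and 8.54% higher. The 4 were ATF5 (-1.06, adjusted p = 5.21e-06), CTH (-0.97), PPP1R15A (-0.86) and PHGDH (-0.40). ATF5 rose by 0.55 in control and fell by 0.50 in DIS3-AID cells, and CTH and PPP1R15A rose in control cells and did not pass in DIS3-AID cells (-0.01 and -0.05). ERN1, the sensor IRE1 of the unfolded protein response, had 71.9, 72.5 and 74.1 CPM in the untreated control, 71.8, 70.2 and 70.9 in auxin-treated control, 71.2, 70.7 and 68.3 in untreated DIS3-AID, and 48.3, 45.1 and 43.9 in auxin-treated DIS3-AID cells. The auxin-treated DIS3-AID libraries lay below the other 9, with an interaction of -0.58 ± 0.07 (SE, adjusted p = 4.33e-05). XBP1 (0.34, adjusted p = 0.0475) was the 1 higher gene of the 20 ER chaperone and unfolded protein response genes, and ERN1 the 1 lower. XBP1 lost its call in 16 of 20 alternatives, and 3 genes were higher without untreated DIS3-AID replicate 1, with a count minimum of 50 or with factors from protein-coding genes.

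Among targets of FOXO and MondoA 3 of 16 were lower, KLHL24 (-1.12), BCL6 (-0.73) and SESN3 (-0.69), and 0 were higher. Of 27 p53 targets 4 were lower, PLK3, TP53INP1 (-0.52), XPC (-0.41) and RPS27L (-0.35), and ZMAT3 was higher (0.34), where 9.2% of all features were lower and 8.54% higher. Library sizes alone gave 7 lower p53 targets. Early targets of NF-kB had TNFAIP3 (-0.63) and RELB (-0.54) lower and TRAF1 (0.51) higher of 14, and YAP targets F3 (0.46), PTPN14 (0.33) and TEAD1 (0.27) higher and NUAK2 (-0.36) lower of 16. Without auxin-treated control replicate 3 there were 5 higher YAP targets.

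Replication-dependent histone genes have transcripts that end in a stem-loop in place of a poly(A) tail. After auxin in DIS3-AID cells 25 of 43 rose and 0 fell, with a median of 0.41, where 11% of all features rose. In control cells 1 rose and 0 fell, with a median of -0.01. The interaction was higher at 9 and lower at 0, with a median of 0.44, where 8.54% of all features were higher. The count was 5 without untreated control replicate 3, 15 without auxin-treated control replicate 1, and 23 of 61 with no filter on low counts. The rise in DIS3-AID cells passed at 16 without untreated replicate 3, and at 15 and 13 without treated replicates 1 and 2. H2BC4 had 6.14, 7.36 and 7.67 CPM in the untreated control, 7.34, 6.39 and 5.77 in auxin-treated control, 7.32, 7.14 and 6.47 in untreated DIS3-AID, and 10.1, 10.4 and 10.1 in auxin-treated DIS3-AID cells. The last 3 were above the other 9, with an interaction of 0.66 ± 0.14 (SE, adjusted p = 0.00236). H2AC14 (0.75) and H2AC4 (0.65) were the other members named by size.

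Ribosomal protein genes had a higher interaction at 16 of 84 and a lower one at 1, with a median of 0.16, against 8.54% of all features higher. The number was 10 with library sizes alone and 26 with factors from protein-coding genes. RPL31 fell by 0.52 in control cells and rose by 0.17 in DIS3-AID cells, an interaction of 0.69, and RPL34 had 0.52. RPL3L, a muscle paralogue, had 1.19 (adjusted p = 0.0253). Zinc finger genes had 19 higher and 45 lower of 364, with a median of -0.08, where 8.54% of all features were higher and 9.2% lower. With library sizes alone there were 9 higher and 73 lower. The counts were 9 and 29 without untreated control replicate 3, 10 and 28 without auxin-treated DIS3-AID replicate 2 and 9 and 29 without auxin-treated DIS3-AID replicate 3. The higher count was 10 to 12 without untreated control replicate 2, auxin-treated control replicate 1 or untreated DIS3-AID replicate 2 or 3. ZNF837 (-1.12), ZNF784 (-0.98) and ZNF362 (-0.82) were the largest.

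Among factors of the exosome, of RNA 3′ end formation, of splicing and of ribosome biogenesis, single genes passed, in a number to be read against the 8.54% of all features higher and the 9.2% lower. Of 15 core exosome genes EXOSC6 (0.32, adjusted p = 0.0377) passed and lost its call in 10 of 20 alternatives. Of 17 adaptors and cofactors ZCCHC7 (0.47) and TENT4A (0.28) of polyadenylation-assisted decay were higher, and NRDE2 (-0.33) and SRRT (-0.24, lost in 13 of 20 alternatives) were lower. Cleavage, polyadenylation and Integrator genes had INTS6, PCF11 (0.42), INTS3 (0.38) and CSTF1 (0.25) higher and CPSF3 (-0.37) lower of 31. The 4 became 2 without untreated control replicate 2, without replicate 2 or 3 of either DIS3-AID group, with the replicate block and with library sizes alone, where 3 were lower. INTS3 lost its call in 11 and CSTF1 in 13 of 20 alternatives. Splicing factors had SRSF5 (0.38) and the kinase CLK1 (0.29) higher of 18, calls that were lost in 12 and 11 of 20 alternatives. Ribosome biogenesis factors had DDX10 (0.44) higher of 37, and 4 were higher with factors from protein-coding genes and 3 with a count minimum of 50. S phase genes had E2F1 (-0.63), MCM6 (-0.50), RRM2 (-0.38), MCM2 (-0.28) and MCM5 (-0.22) lower of 20. There were 3 without untreated control replicate 2 or 3, auxin-treated control replicate 1, untreated DIS3-AID replicate 3, or auxin-treated DIS3-AID replicate 2 or 3, and MCM5 lost its call in 14 of 20 alternatives. G2/M genes had CENPF (-0.36), CKAP2 (-0.31) and KIF11 (-0.24) lower of 22. There were 6 with library sizes alone, 5 with DESeq2 and 1 in the fit of 24 libraries, and CENPF lost its call in 6 of 20 alternatives.

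Targets of the aryl hydrocarbon receptor (AHR), a ligand-activated transcription factor that induces enzymes of xenobiotic metabolism, were the plainest case of a response shared by both lines. In each line 7 of 10 rose and 0 fell, with a median of 0.56 in control and 0.83 in DIS3-AID cells. Of all features, 9.02% rose in control and 11% in DIS3-AID cells. CYP1A1, a cytochrome P450 (chr15:74719542-74725610, minus strand), had 1.15, 0.747 and 1.15 CPM in the untreated control, 4.94, 5.05 and 4.88 in auxin-treated control, 0.835, 0.882 and 1.12 in untreated DIS3-AID, and 3.95, 3.76 and 4.36 in auxin-treated DIS3-AID cells. The 6 treated libraries were above the 6 untreated ones. It rose by 2.23 in control and 2.11 in DIS3-AID cells, and the interaction was -0.12 ± 0.19 (SE, adjusted p = 0.716). TIPARP, a repressor of the receptor (chr3:156673235-156706770, plus strand), had 127, 122 and 134 CPM in the untreated control, 258, 274 and 230 in auxin-treated control, 114, 96.1 and 105 in untreated DIS3-AID, and 197, 206 and 222 in auxin-treated DIS3-AID cells. It rose by 0.99 in each line, with an interaction of -0.01 ± 0.10 (SE, adjusted p = 0.982). An interaction that does not pass does not show that the 2 responses were equal.

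CYP1B1 (1.51 in control and 1.80 in DIS3-AID cells), which shares exon sequence with RMDN2-AS1, AHRR (0.69 and 0.83), STC2 (0.76 and 0.82) and SLC7A5 (0.41 and 0.37) also rose in both lines. The interaction of NQO1, a quinone reductase, was -0.50 (adjusted p = 0.00915) and passed alone in the list. HAS3, a hyaluronan synthase outside the list, rose in both lines and more in control cells. It had 10.7, 10.7 and 10.6 CPM in the untreated control, 27.8, 26.3 and 32.4 in auxin-treated control, 21.2, 27.4 and 25.4 in untreated DIS3-AID, and 52.9, 47.1 and 43.4 in auxin-treated DIS3-AID cells. The rise was 1.43 in control and 0.96 in DIS3-AID cells, an interaction of -0.48 ± 0.13 (SE, adjusted p = 0.0183). AC239584.1 and LINC00310 fell in both lines, by 1.03 and 1.00 and by 0.99 and 0.95. Among genes with the largest control response, AL353743.4 rose by 1.84 there and 0.54 in DIS3-AID cells (interaction -1.29), and LINC01068 fell by 1.39 and 0.47 (0.92).

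Promoters are printed for 2 AHR targets, which rose in both lines, and for 2 heat shock genes, which fell in control cells only. Each is the 250 bases before the gene's start in RefSeq on GRCh38.p14, 5′ to 3′ on the gene's strand. The windows searched also held the 50 bases after the start, which are not printed. Capitals mark the core of the AHR response element, GCGTG or its reverse complement CACGC, in the first pair, and the inverted heat shock repeat, GAANNTTC or TTCNNGAA, in the second pair. The heat shock motif was chosen after the values were seen.
CYP1A1 (chr15:74725529-74725778, minus strand): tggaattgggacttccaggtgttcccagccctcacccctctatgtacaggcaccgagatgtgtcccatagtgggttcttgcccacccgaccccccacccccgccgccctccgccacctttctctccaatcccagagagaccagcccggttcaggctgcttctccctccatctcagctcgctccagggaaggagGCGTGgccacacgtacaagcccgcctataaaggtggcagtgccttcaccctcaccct
TIPARP (chr3:156674340-156674589, plus strand): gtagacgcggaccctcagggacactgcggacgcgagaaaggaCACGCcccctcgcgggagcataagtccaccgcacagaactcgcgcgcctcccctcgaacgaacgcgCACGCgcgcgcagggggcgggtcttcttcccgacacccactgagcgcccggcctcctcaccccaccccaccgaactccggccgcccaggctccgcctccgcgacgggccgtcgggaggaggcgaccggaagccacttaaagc
CHORDC1 (chr11:90223050-90223299, minus strand): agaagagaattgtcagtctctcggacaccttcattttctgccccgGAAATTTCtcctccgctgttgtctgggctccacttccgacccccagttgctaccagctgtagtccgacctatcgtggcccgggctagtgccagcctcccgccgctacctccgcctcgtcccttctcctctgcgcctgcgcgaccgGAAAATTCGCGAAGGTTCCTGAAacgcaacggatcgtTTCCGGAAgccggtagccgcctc
HSPH1 (chr13:31162389-31162638, minus strand): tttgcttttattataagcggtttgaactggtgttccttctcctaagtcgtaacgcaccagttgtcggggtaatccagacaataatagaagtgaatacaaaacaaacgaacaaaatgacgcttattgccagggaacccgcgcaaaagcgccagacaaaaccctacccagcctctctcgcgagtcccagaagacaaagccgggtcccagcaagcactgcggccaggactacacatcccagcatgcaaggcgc
The AHR core lies 57 bases before the start of CYP1A1 and 208 and 142 bases before that of TIPARP, which has 3 windows in the RefSeq table. Of 8 tested AHR targets with a window 7 held the core, and 36.5% of all 35116 windows, each with the same 250 and 50 bases, did. CHORDC1 holds 6 matches of the heat shock repeat, several of them overlapping, and HSPH1 holds none in its window. CYP1A1 holds 1, which starts 18 bases past the gene's start. Of 12 heat shock genes 4 held it (HSPA8, DNAJA1, HSPB1 and CHORDC1), against 13.5% of all windows. These matches are descriptions and show no binding.

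**Figure D4:**
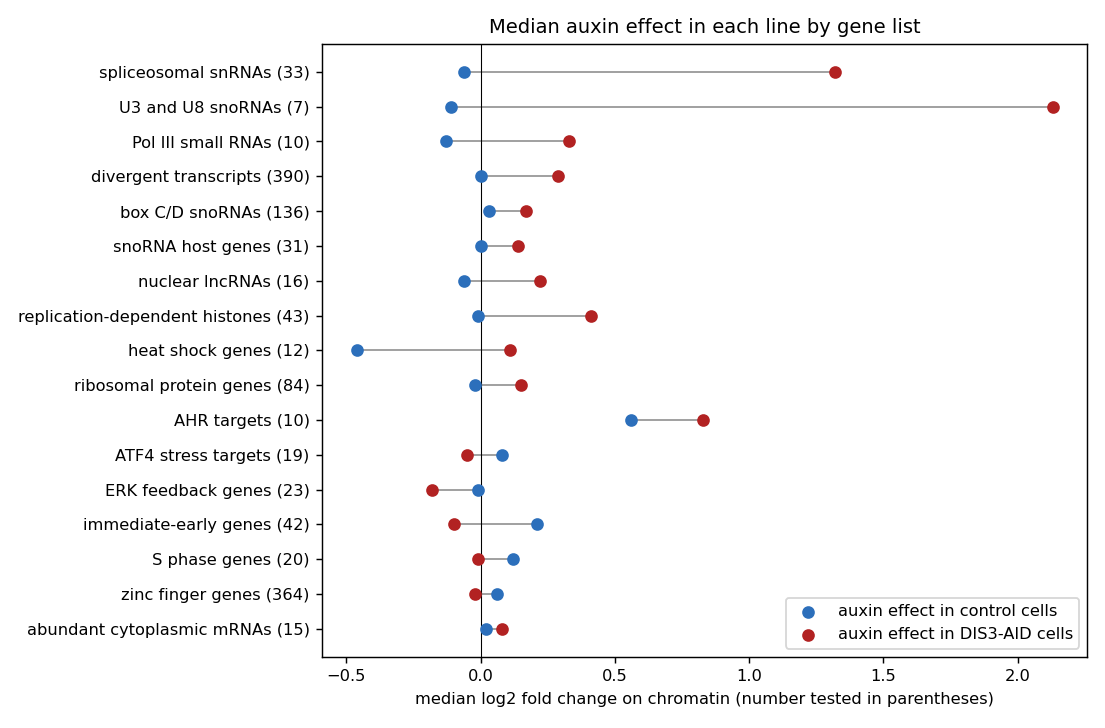
Median log2 auxin effect on chromatin of the tested members of 17 gene lists, in control cells and in DIS3-AID cells. U3 and U8 (2.13) and spliceosomal snRNAs (1.32) are far up in DIS3-AID cells only, heat shock genes are down in control cells only (-0.46), and AHR targets are up in both lines (0.56 and 0.83).

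Cytoplasmic total RNA from the same 4 conditions was fitted together with chromatin to see where the interaction differed between the fractions. The labels call the cytoplasmic triplicates technical, so each cytoplasmic group is 1 biological sample. The adjusted p-values and calls for the cytoplasm and for the difference then measure technical spread only and are too small as tests of the conditions. Heat shock genes had a larger interaction on chromatin than in the cytoplasm, divergent transcripts and assembled loci often had a larger one in the cytoplasm, and BCYRN1 had a larger one on chromatin. Over 27418 features tested in 24 libraries, the chromatin interaction minus the cytoplasmic one was higher at 3708 (13.5%) and lower at 2263 (8.25%) with factors taken across all libraries. With factors taken within each fraction, chosen after the data were seen, it was higher at 1009 and lower at 3118. The cytoplasmic interaction itself was higher at 3563 (13%) and lower at 8060 (29.4%) in the first case and higher at 3902 and lower at 510 in the second. The scaling moved the median of the cytoplasmic interaction from -0.225 to -0.013, so the counts by list and class that follow are those called under both scalings, and the medians are from the scaling within fractions. Under both, the difference was higher at 1009 (3.68%) and lower at 2255 (8.22%), and the cytoplasmic interaction was higher at 3504 (12.8%) and lower at 510 (1.86%).

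Of 12 heat shock genes 11 had a higher interaction on chromatin than in the cytoplasm, with a median difference of 0.72, where 3.68% of all features did. In the cytoplasm 0 passed, with a median of -0.14. HSPH1 had mean cytoplasmic levels of 175 CPM in untreated control, 174 in auxin-treated control, 146 in untreated DIS3-AID and 113 in auxin-treated DIS3-AID cells. Its difference between fractions was 1.70 with factors across all libraries and 1.49 within fractions (adjusted p = 5.44e-05 and 0.000218). TAF7 had 46.5, 47.7, 42.1 and 39.2 CPM in the cytoplasm of the same groups, and its difference was -1.85 and -2.06. For BPHL it was -1.51 and -1.73. In the cytoplasm the interaction of HSPH1 (-0.36), TAF7 (-0.14) and BPHL (-0.11) did not pass under either scaling.

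Among spliceosomal snRNAs 35 of 38 had a higher interaction in the cytoplasm (median 2.38), where 12.8% of all features did. The difference was lower at 7, with a median of -1.01. RNVU1-14 had 1.62, 1.73, 2.7 and 17 CPM in the cytoplasm, and its difference did not pass (0.67, adjusted p = 0.26). All 7 U3 and U8 genes were higher in the cytoplasm (median 3.02), with 1 difference called lower. Divergent transcripts were higher in the cytoplasm at 296 of 460 (median 1.38), and the difference was lower at 158 and higher at 6. Only 390 of them were also tested in the chromatin fit. Of these, 262 were higher in the cytoplasm with factors across all libraries (median 1.08). The others may have passed the low-count filter through the cytoplasmic group in which they are high, which may raise such shares. By class the difference was lower at 925 and higher at 92 of 6286 lncRNAs, and lower at 556 and higher at 12 of 1433 assembled loci. It was lower at 607 and higher at 876 of 15106 protein-coding genes. Of all features, 8.22% were lower and 3.68% higher. The chromatin fit tested 1005 assembled loci, so the limit of the filter holds for them too. For BCYRN1 the difference was 1.61 and 1.40 under the 2 scalings, and 3 of 12 RNA polymerase III transcripts were higher.

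Histone genes had a higher interaction on chromatin at 25 of 55 and a lower one at 1 (median 0.50), and ribosomal protein genes at 29 of 84 and 0 (median 0.32). Of all features, 3.68% were higher and 8.22% lower. The chromatin fit tested 43 of the histone genes. ER chaperone and unfolded protein response genes had 10 of 20 higher and 0 lower (median 0.50), where 9 had a lower cytoplasmic interaction (1.86% of all features did). CYP1A1 had 2.37, 2.97, 1.48 and 3.58 CPM in the cytoplasm, a cytoplasmic interaction of 0.95 and 1.17 under the 2 scalings, and a difference of -1.08 and -1.29 (adjusted p = 0.00447 and 0.00121). MYO16, an unconventional myosin, had 1.26, 1.02, 1.86 and 17.4 CPM in the cytoplasm and a chromatin interaction of 0.17 (adjusted p = 0.372). Its difference, -3.38 and -3.59, was among the 5 lowest. The mitochondrial ribosomal RNA MT-RNR1 had the highest difference (8.77, adjusted p = 0.0396). That call was lost within fractions (adjusted p = 0.0584), and its levels varied among libraries of the same group.

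**Figure D5:**
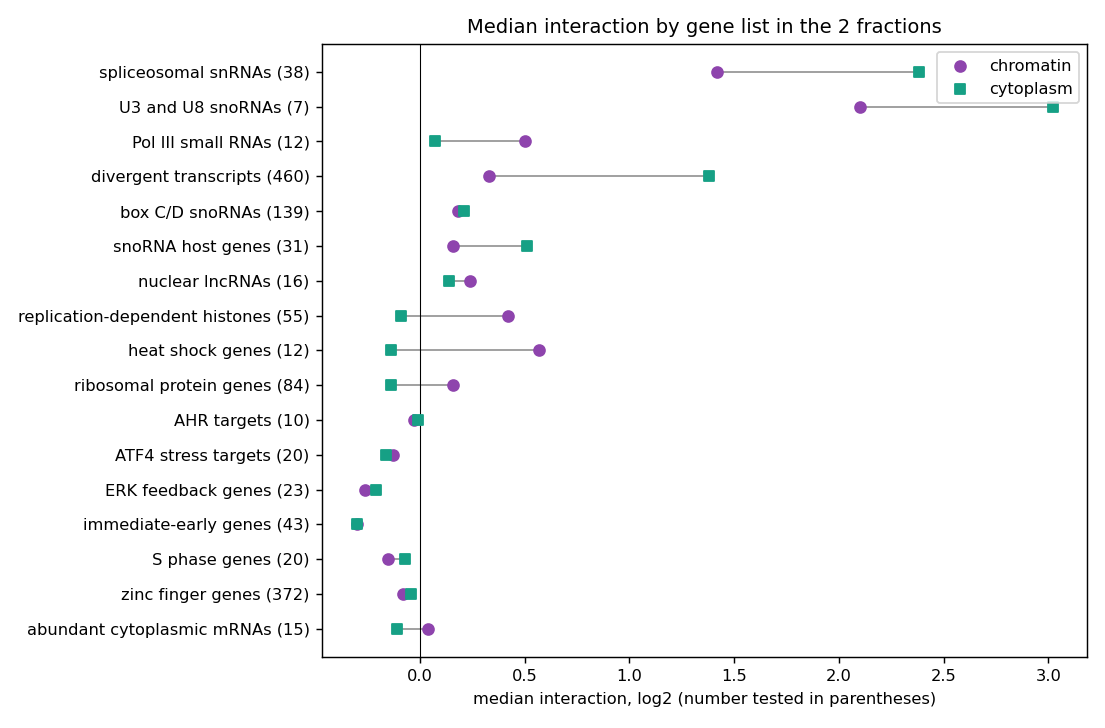
Median interaction of 17 gene lists on chromatin and in the cytoplasm from the fit of 24 libraries, with chromatin medians from factors across all libraries and cytoplasmic medians from factors within the fraction. Spliceosomal snRNAs (2.38) and divergent transcripts (1.38) have the larger median in the cytoplasm, and RNA polymerase III transcripts (0.50 against 0.07) have it on chromatin. Nuclear lncRNAs have medians of 0.24 on chromatin and 0.14 in the cytoplasm, with 0 differences called higher on chromatin and 2 lower. Heat shock genes are positive on chromatin and at -0.14 in the cytoplasm.

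The share of all chromatin counts held by each class was tested over libraries with an exact permutation of the auxin labels within each line. Assembled loci held 0.687 ± 0.0109% in untreated control, 0.699 ± 0.0198% in auxin-treated control, 0.67 ± 0.0145% in untreated DIS3-AID and 0.871 ± 0.0209% in auxin-treated DIS3-AID cells (SD, n = 3). All 3 auxin-treated DIS3-AID libraries were the highest, and the interaction of the share was 0.36 (log2, exact permutation p = 0.085, Benjamini-Hochberg 0.196). For lncRNAs the means were 7.22, 7.36, 7.05 and 7.62% (0.08, exact permutation p = 0.125), and for snoRNAs 0.112, 0.114, 0.091 and 0.107% (0.21, exact permutation p = 0.115). None of the classes passed, and the smallest p these 400 relabellings can give is 0.005. Reaching it also needs the control shares to be fully ordered in the opposite direction. The test could therefore hardly pass a change in DIS3-AID cells alone, and nothing is concluded from its outcome.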

How the data were processed

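The authors deposited 1 table of read counts per feature for each library, and the values used here are those counts. Per the submitters' processing notes, the tools were featureCounts 2.0.0, STAR 2.7.3a and Cufflinks 2.2.1 with the hg38 build, and their settings are not given in the sources used here. Totals of the 12 chromatin libraries were 50.3 to 139 M counts. The tables hold 59607 features, 58174 Ensembl genes and 1433 assembled loci, and 57836 were found in GENCODE 29.

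Counts were filtered with filterByExpr (min.count 10), scaled by TMM and fitted over all 4 groups in edgeR 4.0.16 (robust quasi-likelihood F test, R 4.3.3), with Benjamini-Hochberg adjustment over all features. Adjusted p-values in the text are from that test. The biological coefficient of variation was 6.5%. Auxin effects within each line and the interaction were contrasts of this fit, and 12 cytoplasmic libraries (59.5 to 122.6 M counts) were added in a second fit of 24 libraries for the fraction comparison. DESeq2 1.42.0, other scalings and filters, a replicate block and each library left out were alternatives. Shares were tested by exact permutation, U1 genes were aligned with Biopython 1.88, and scripts ran in Python 3.11.15 after tests on simulated data.

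Genes were named by rule: the 10 highest non-coding, 10 highest protein-coding and 10 lowest interactions with a mean of at least 1 CPM, the 6 largest opposite and 6 largest shared effects, the 6 largest control effects, up to 3 per list past the threshold, the 5 highest and 5 lowest differences between fractions, and DIS3. Other list members are named as examples chosen after their values were seen. The groups compared and the gene lists were chosen with earlier results of these data known. Nothing in the labels says that the chromatin triplicates came from separate cultures (those of the cytoplasm are called technical), and the p-values then reflect only how far these libraries vary, which may be technical. Replicates differed beyond counting noise (chi-square divided by its degrees of freedom, 4.7 to 23.77), so no library was a duplicate. Same-numbered libraries of different groups did not deviate together (r from -0.416 to 0.293), so the numbers were not used as pairs. Exon sharing between genes was read from GENCODE 29, and how shared reads were counted is not given.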

Additional observations from a re-analysis of the deposited data

Results flagged for a closer look

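The auxin effect passed in both lines with opposite signs at 524 features (2.1% of those tested). The test of the difference between the lines passed at each of them. That test uses the same libraries and its outcome was nearly fixed by this choice, so it is no further support. The 6 named for the largest effects were AC145098.2 (2.36), CFAP161 (2.11), AKAP5 (1.82), LINC01389 (-2.0), TAF7 (-1.98) and AL031289.1 (-1.85), all as log2 interactions in edgeR. The first 3 fell in control and rose in DIS3-AID cells, and the last 3 did the reverse.

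The difference of the interaction between chromatin and cytoplasm was called at 1009 features higher (3.68%) and 2255 lower (8.22%) under both scalings. Each cytoplasmic group is 1 biological sample in technical triplicate. These calls therefore measure technical spread only, and the values below are descriptions. Of the 5 highest and 5 lowest differences, 8 were among these calls. The difference was higher for NKAIN3 (2.03), CFAP161 (1.96) and AKAP5 (1.92). It was lower for LINC02989 (-4.51), AC097716.1 (-3.93), AL033397.1 (-3.52), CCT6B (-3.41) and MYO16 (-3.38). LINC02989 had 0.08 on chromatin alone (adjusted p = 0.813) and 4.59 in the cytoplasm. CCT6B had -1.19 on chromatin (adjusted p = 2.8e-05) and 2.22 in the cytoplasm. AL033397.1 shares exon sequence with GCLC.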

How the results depend on the processing

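None of the genes named by rule changed direction past the threshold under an alternative, and of 109 with an interaction call 87 kept it under each one tried. Of 38 further list members given as examples, 28 had a call, 17 of these kept it under each alternative, and 0 changed direction past the threshold. Calls of low-count or small effects were lost most, with 12 or 13 lost without auxin-treated DIS3-AID replicate 2 or 3, auxin-treated control replicate 1 or untreated control replicate 3. The interaction was higher at 1410 to 2420 and lower at 1649 to 2531 features over the 12 libraries left out. The control effect was higher at 1216 to 2452 and lower at 1097 to 2331, and the DIS3-AID effect higher at 1914 to 3131 and lower at 1683 to 2845. With library sizes alone the cytoplasmic interaction was lower at 234 features and with factors within each fraction at 510, against 8060. The fraction difference was then higher at 385 and 1009, against 3708, and with library sizes alone lower at 4128, against 2263. With library sizes alone 32.2% of interaction calls on chromatin were higher, against 48.1% in the reported fit. DESeq2 gave 2082 higher and 2323 lower.

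With replicate numbers entered as a block, the interaction was higher at 1794 and lower at 1995 features. The pairing correlations did not support a pairing, and 7 named genes lost their call under the block. Depth limits the divergent and antisense transcripts under 1 CPM, where members without enough counts were not tested (188 of 578 divergent transcripts).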
